A study of Mus musculus with 157 samples.

Results

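The mRNAs carried on the largest polysomes of LPS-activated B cells were compared with those on mid-sized polysomes of the same sucrose gradients. Libraries were chosen by treatment and fraction number. Of the 53 libraries from LPS cells, the 12 from fractions 14 to 16 formed the heaviest class and the 12 from fractions 11 to 13 formed the middle class, which together were 24 of the 157 libraries in the series. The labels place fractions 11 to 16 together as heavy polysomes, and the boundary between fractions 13 and 14 was set for the present comparison. Counts were scaled to CPM, which brings every library to the same total, the 3 libraries of a class were averaged within each gradient, and the comparison was made within gradient, which gave 4 pairs of values per gene. Gradients are named by their library pool, LUL15 to LUL18.

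Splenic B cells of C57BL/6Babr mice, purified with an isolation kit, were cultured with lipopolysaccharide (LPS, 10 µg/ml), a bacterial product that drives B cells to grow, divide and secrete antibody. LPS cells had 48 h of LPS alone. In a second group (LPS+ET) etoposide, which poisons topoisomerase II and breaks DNA, was present at 20 µM for 4 h, and in the last group (LPS+ET+KU) the ATM kinase inhibitor KU55933 (10 µM, 1 h) was added after 47 h of LPS and ahead of etoposide. In all groups cycloheximide (100 µg/ml, 3 min), which stalls ribosomes on mRNA, preceded the cytoplasmic extract, and 3′ end libraries were made from single fractions. The study's methods speak of biological replicates, but no source used here ties a gradient to an animal or culture, so p-values measure the spread between gradients.

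A ribosome that has begun translating an mRNA leaves room for the next to follow, and an mRNA with several ribosomes sediments as a polysome, further down the gradient with each ribosome added. The number carried depends on how often initiation occurs, on how fast ribosomes elongate and on the length of the coding sequence, which bounds how many fit. Position in a gradient is therefore a measure of ribosomes per mRNA and not of protein made.

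The 24 libraries held between 32306 and 3403708 counts (median 1141780), and 1 of them, fraction 12 of the LUL17 gradient with 32306 counts, fell under 100000. Equal RNA concentrations were used for every library, so a total is no measure of the RNA in a fraction, and all levels are shares of a library. The LUL16 gradient stood apart: 8 of its 13 fractions, including fractions 12, 13 and 14, resembled the next fraction of the other 3 gradients more than the same fraction, and 61.4% of the tested genes peaked earlier in it than in the others, against 11.8% to 19% for the other gradients. Values without LUL16 or without the shallow library are given beside several of the results that turned on them. B cell receptor and surface mRNAs summed to between 10090 and 17330 CPM over both classes and gradients with none of 20 at 0. T cell markers summed to between 103.9 and 182.7 CPM, myeloid markers to between 40.7 and 73.6 CPM and erythroid and platelet markers to between 28.1 and 90.3 CPM, and among these Cd3e, Cd3g, Cd5, Cd8a and the platelet marker Itga2b had no count in the heaviest class, and Csf3r, Lyz1, Mpo and Alas2 had none in either class. Their part in the results was not tested.

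The mRNAs enriched on the largest polysomes were those of very long proteins. Count-weighted mean protein length was 427, 469, 445 and 400 residues in the middle class of LUL15, LUL16, LUL17 and LUL18, and 699, 666, 677 and 679 residues in the heaviest class (435 ± 29.1 and 680 ± 13.7, mean ± SD, n = 4 gradients). The classes did not overlap. Along the gradient this mean stood at 346 ± 6.12 residues in fraction 10, 442 ± 45.5 in fraction 12, 615 ± 35.2 in fraction 14 and 719 ± 12.4 in fraction 15. Proteins of 800 residues or more took 8.57%, 10.6%, 8.97% and 6.64% of middle counts and 26.4%, 24.1%, 23.7% and 24.2% of heaviest counts. The share was higher in the heaviest class of all 4 gradients (8.69% ± 1.61 against 24.6% ± 1.22, exact sign-flip permutation test, two-sided, p = 0.125, the smallest that 4 pairs allow). mRNAs of proteins of under 200 residues went the other way, at 16.6% ± 2.45 of middle and 10.6% ± 1.45 of heaviest counts, and were lower in 4 of 4 gradients (exact sign-flip permutation p = 0.125).

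**Figure D1:**
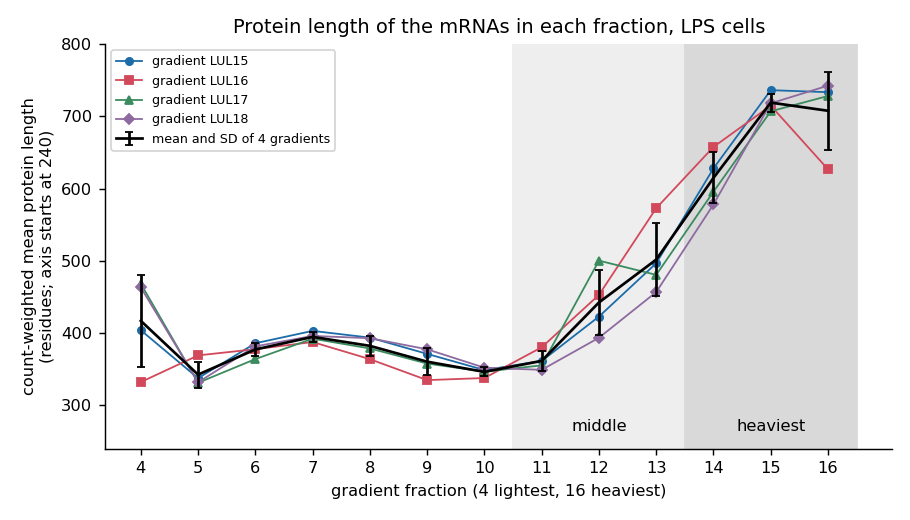
Count-weighted mean length (residues, axis from 240) of the annotated proteins of the mRNAs in each LPS library, against fraction number; coloured lines are the 4 gradients, the black line and bars their mean and SD, and grey bands the middle and heaviest classes. The mean rose from 346 residues in fraction 10 to 719 in fraction 15, and the LUL16 line ran ahead of the others in fractions 13 and 14.

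Of 17085 genes with a count 6472 passed the filter on low counts and were tested, and 2150 of them (33.2%) differed between the classes, with 1147 (17.7%) higher and 1003 (15.5%) lower in the heaviest fractions (limma, gradient as a block, Benjamini-Hochberg adjusted p under 0.01, two-sided). The log2 difference, heaviest minus middle on the log2(mean CPM + 1) scale, had a median of -0.22 over all genes tested and ran from -1.98 to 3.97. A difference of more than 1 was called for 977 genes and of less than -1 for 314 genes. All 4 gradients gave the same sign for 3715 genes (57.4%). Without the LUL16 gradient 3453 genes were called, of which 2119 were among the 2150, and without any other gradient the count was between 1259 and 1349. The calls split into 985 higher and 364 lower without LUL15, and 1547 and 1906 without LUL16. They were 881 and 445 without LUL17, and 893 and 366 without LUL18. Among these fits, lower calls outnumbered higher ones without LUL16 alone. Lower calls also led without the shallow library (1255 higher, 1413 lower) and without fraction 16 (1263 and 1414). The same held at an adjusted p under 0.05 (1442 and 1898) and with a stricter filter on low counts (709 and 829). It held as well with LUL16 read 1 fraction earlier (1748 and 2317). Higher calls led in the other settings, as with TMM scaling (1136 and 1087) and edgeR on summed counts (1480 and 920).

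The gene with the largest difference was Cad, which encodes the trifunctional enzyme that starts pyrimidine synthesis (2225 residues, GRCm38 chr5:31054780-31078479, plus strand, counted at the transcript end). It stood at 132.5, 190.7, 159.0 and 100.5 CPM in the middle class and at 2246, 2448, 2016 and 2232 CPM in the heaviest class of LUL15 to LUL18. Every heaviest value lay above every middle value, a log2 difference of 3.97 ± 0.18 (SE, adjusted p = 2.23e-08) or 15.6-fold. Tln1, the adaptor talin that links integrins to actin, came next at 62.8, 99.9, 33.5 and 34.4 CPM against 789, 1152, 390 and 662 CPM, with a log2 difference of 3.72 ± 0.18 (adjusted p = 2.53e-08). Fasn, the multidomain fatty acid synthase of 2504 residues, was at 92.7, 105.6, 84.6 and 63.6 CPM in the middle and at 1106, 1247, 911 and 923 CPM in the heaviest fractions (log2 difference 3.59 ± 0.16). In each of these mRNAs every heaviest value lay above every middle value, though the heaviest values of Tln1 ranged from 390 to 1152 CPM. These genes were picked for large differences with the same sign in all gradients.

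The other 9 of the 12 protein coding genes with the largest rises encoded proteins of 1464 to 4873 residues. Cltc, the clathrin heavy chain, had a log2 difference of 3.60 and Igf2r, the receptor that carries lysosomal enzymes, one of 3.62, from 3.09 ± 2.66 to 43.3 ± 16.0 CPM. Prrc2c (3.56), the spliceosomal helicase Snrnp200 (3.55), the giant ubiquitin ligase Birc6 (3.52), Rrbp1 (3.51), the acetyltransferase scaffold Trrap (3.47), the spindle protein Aspm (3.43) and the RNA polymerase III factor subunit Gtf3c1 (3.43) completed the group. Their adjusted p-values lay at or under 9.48e-07 (limma). Rrbp1, an endoplasmic reticulum membrane protein that binds ribosomes, was the shortest of the 12 at 1464 residues, and its 4 gradients lay within 3.33 and 3.59.

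The 12 protein coding genes with the largest falls encoded proteins of 104 to 289 residues. Ndufs8, an iron-sulphur subunit of respiratory complex I (212 residues, chr19:3908870-3912717, minus strand), stood at 67.3, 71.7, 59.6 and 59.7 CPM in the middle and at 26.2, 31.6, 11.9 and 19.6 CPM in the heaviest class. Its classes did not overlap, with a log2 difference of -1.57 ± 0.22 (adjusted p = 0.000106). Psma2, a subunit of the proteasome core (234 residues), was at 244, 233, 112.6 and 166 CPM against 107.5, 92.9, 35.7 and 64.9 CPM, lower within each gradient at -1.37 ± 0.17 (adjusted p = 4.16e-05).

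Wbp5, listed as Tceal9 in GENCODE, fell by 1.57, the myosin light chain Myl12b by 1.37, the iron-siderophore binder Lcn2 by 1.36 and Sssca1 by 1.35 on the log2 scale. Without the shallow LUL17 library Psma2 moved to -1.15, Ndufs8 to -1.45, Sssca1 to -1.19 and Lcn2 to -1.32. The falls of Wbp5 (-1.70) and Myl12b (-1.46) were larger without it. For 5 others the fall was also smaller without the shallow LUL17 library. Acp1, a low molecular weight phosphatase, had differences of -1.21, -0.57, -3.59 and -1.27 in LUL15 to LUL18, and the mean of -1.66 became -1.09 without that library. Nme2, a nucleoside diphosphate kinase whose counted site it shares with the readthrough gene Gm20390, moved from -1.57 to -1.09, the ubiquitin ligase subunit Skp1a from -1.53 to -1.23, Chchd6 from -1.44 to -1.26 and BC005624 from -1.42 to -0.90. All 5 remained called without it (limma adjusted p of 0.000755 to 0.00432). Without the whole LUL17 gradient Nme2 (-0.87, limma adjusted p = 0.0105), Skp1a (adjusted p = 0.0177) and BC005624 (-0.96, adjusted p = 0.0119) were no longer called.

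**Figure D2:**
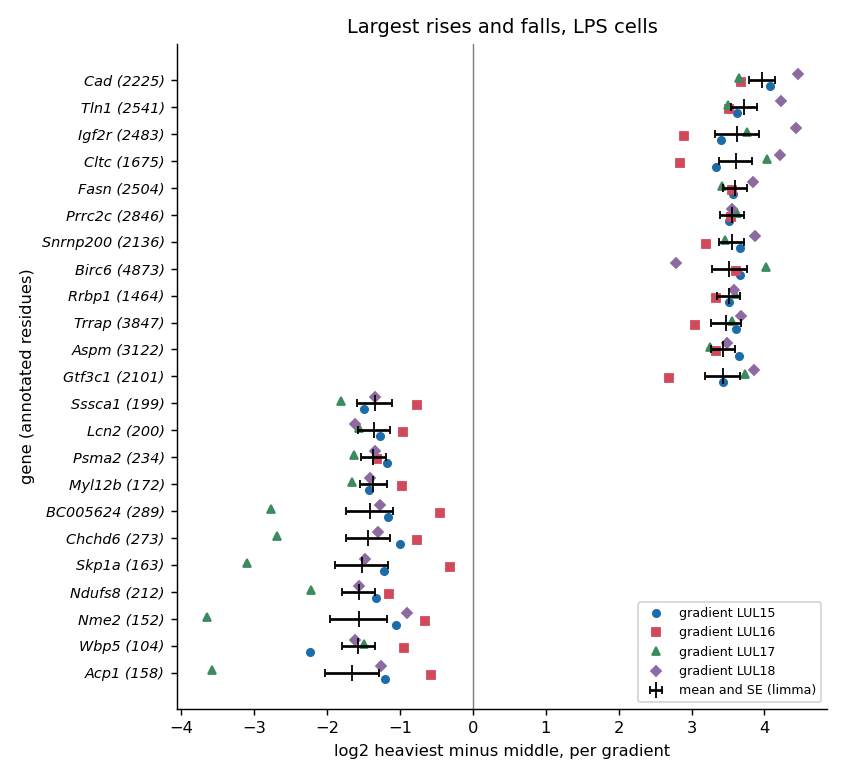
Log2 difference (heaviest minus middle) of the 12 protein coding genes with the largest rises and of 11 of the 12 with the largest falls, in each of 4 LPS gradients (coloured symbols) and as mean and SE (black); annotated residues are in brackets. The choice of genes required all 4 points on one side of 0, and the LUL17 points of Acp1, Nme2 and Skp1a lay far to the left of the others.

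Across the 6197 tested protein coding genes with an annotated length (99% of 6258), the difference followed length in steps. Its median was -0.37 under 100 residues (134 genes), -0.66 at 100 to under 200 (746 genes), -0.57 at 200 to under 400 (1866 genes), 0.01 at 400 to under 800 (2185 genes), 1.00 at 800 to under 1600 (984 genes) and 1.94 at 1600 or more (282 genes). Beside 17.7% of all genes called higher, 0%, 0.134%, 0.482%, 15.4%, 55.4% and 83% were called higher in these 6 classes. Beside 15.5% called lower over all genes, the shares called lower were 8.96%, 34%, 31.4%, 4.85%, 0% and 0.355%. The shortest class was not the lowest: its median lay above those of the next 2 classes, and without LUL16 these 3 medians were -0.63, -0.86 and -0.65. Genes called higher had a median length of 1001 residues, those called lower 256 and those not called 422.

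Spearman's rho between length and the log2 difference, given as a description across genes that share libraries, was 0.726 for the mean of gradients (n = 6197). Single gradients gave 0.723 (LUL15), 0.384 (LUL16), 0.662 (LUL17) and 0.757 (LUL18), so LUL16 was again the one apart. The length of the 3′ untranslated region gave 0.171 over the same genes, and between -0.209 and 0.281 within the length classes. The value of a long gene also differed with the place where its reads were counted. Among genes of 800 residues or more, the 1222 whose counted site lay after the stop codon had a median of 1.21, whereas the 38 counted inside the coding span had a median of 0.17.

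**Figure D3:**
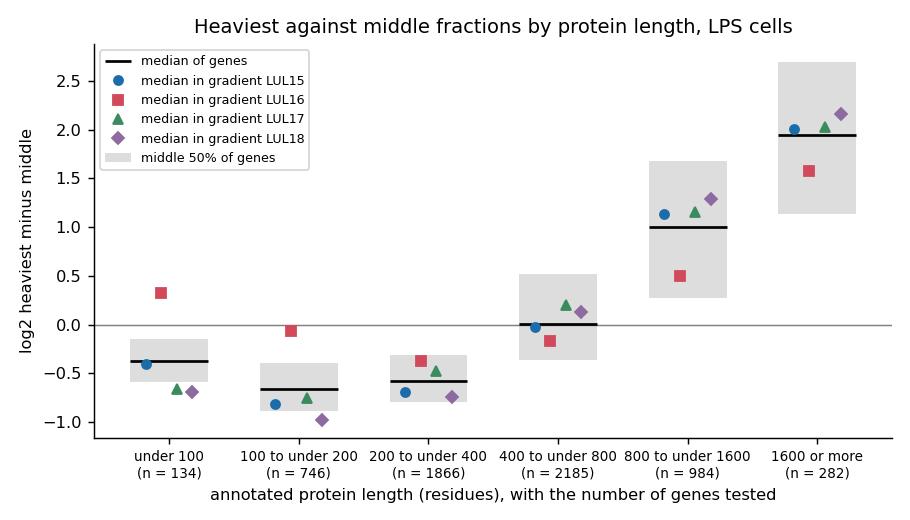
Log2 difference (heaviest minus middle) by annotated protein length class: grey boxes hold the middle 50% of genes, black lines are medians over genes and symbols the median in each LPS gradient. The medians run from -0.66 to 1.94, and the LUL16 symbols lie nearer to 0 than the other gradients in most classes.

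Exceptions to length were few, and they were picked after the values were seen. Of 882 tested genes under 200 residues 1 was called higher, Eif4ebp3, an inhibitor of the cap-binding factor eIF4E (101 residues). It stood at 13.2, 11.1, 16.8 and 6.76 CPM in the middle and at 66.2, 71.0, 70.6 and 75.6 CPM in the heaviest class, with no overlap and a log2 difference of 2.53 ± 0.24 (adjusted p = 3.31e-06). Its counted site also belongs to the annotated gene AC115631.1, whose longest protein has 636 residues, and the reads of the pair cannot be told apart. Of 1266 tested genes of 800 residues or more 1 was called lower, Tg, the thyroglobulin gene (2766 residues). Tg was at 86.5, 80.8, 147.2 and 156.8 CPM against 47.7, 76.9, 57.9 and 75.8 CPM, a log2 difference of -0.82 ± 0.22 (limma adjusted p = 0.00708, edgeR adjusted p = 0.0166). Its level peaked in fraction 10 of LUL15 and LUL17, fraction 9 of LUL16 and fraction 11 of LUL18. Count-weighted mean protein length in fraction 10 was 346 residues. Whether the tags counted for Tg came from a full-length mRNA was not tested.

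Among proteins of 400 to under 800 residues, where the median was close to 0, the extremes were also taken after the values were seen. Among the highest were Rrm1, the large subunit of ribonucleotide reductase (2.73 ± 0.24), Tfrc, the transferrin receptor (2.44 ± 0.19), Cbll1 (2.43) and the hyaluronan-mediated motility receptor Hmmr (2.35). Tfrc stood at 170.8, 209.6, 185 and 140.9 CPM in the middle and at 1021, 726, 1059 and 1041 CPM in the heaviest class, so that the lowest heaviest value was still above every middle one. Among the lowest were Zfp410 (-1.19), Agxt2l2 (-1.13), Pdk3 (-1.10) and Aamp (-1.04). With edgeR on summed counts Zfp410 was at -0.70 and was not called (adjusted p = 0.0224).

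The lists of long proteins were nearly all higher in the heaviest fractions. They are read beside 17.7% of all genes called higher, 55.4% at 800 to under 1600 residues and 83% at 1600 or more. A gene is said to rise or fall where its difference was called above or below 0. All 16 cytoskeletal and scaffold proteins rose (median 2.56), among them Myh9, the non-muscle myosin heavy chain (3.37), as did all 17 spliceosome and RNA helicase proteins (median 1.93), led by Snrnp200, Prpf8 (3.37), the catalytic core scaffold of the spliceosome, and Son (2.85). HECT and other giant ubiquitin ligases rose in 16 of 17 cases (median 2.74), with Ubr4 at 3.16 and Herc1 at 3.15. The exception was Itch, at 19.6 and 18.9 CPM in the middle and heaviest classes (log2 difference 0.00 ± 0.25, adjusted p = 0.996). Of 36 chromatin and transcription proteins 34 rose (median 1.64), including the remodellers Chd4 (3.30) and Atrx (3.06). Mll5 (0.08, adjusted p = 0.702) and Wbp7 (1.22, adjusted p = 0.0189) did not pass.

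DNA damage kinases and repair proteins are of interest in cells that cut and mutate their own antibody genes. Of 20 tested, 18 rose (median 2.18), beside 55.4% of all genes at 800 to under 1600 residues and 83% at 1600 or more. The 20 proteins had 1312 to 4128 residues. Fancd2, the ubiquitinated core protein of interstrand crosslink repair, had a log2 difference of 3.38 ± 0.21. Prkdc, the DNA-dependent protein kinase of end joining, was at 8.67, 8.19, 2.35 and 3.73 CPM in the middle and 59.5, 69.2, 45.1 and 43.3 CPM in the heaviest class (3.15 ± 0.26, adjusted p = 8.26e-07). Fancm (0.46, adjusted p = 0.0946) and Topbp1 (0.38, adjusted p = 0.105) did not pass. Top2a, the topoisomerase that etoposide poisons, stood at 1671, 2627, 1715 and 1139 CPM against 17850, 20420, 14830 and 16690 CPM, a 10.1-fold difference (3.34 ± 0.19, adjusted p = 7.25e-08), and peaked in fraction 16 of 3 gradients and in fraction 15 of LUL16.

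The cell division list split by length. Of 20 members 13 rose and 2 fell (median 1.69), beside 17.7% and 15.5% of all genes. Besides Top2a and Aspm, the kinesins Kif4 (2.98), Kif15 (2.55) and Kif23 (2.23), the proliferation marker Mki67 (2.90) and the checkpoint kinase Bub1b (2.13) were higher in the heaviest fractions. The 2 that fell were Cdk1, the kinase that drives mitosis (297 residues, -0.96, adjusted p = 0.000339), and its partner cyclin Ccna2 (422 residues, -0.75, adjusted p = 0.00352).

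Subunits of the respiratory chain and the proteasome, the large machines of energy supply and protein degradation, had medians below 0. Beside 15.5% of all genes called lower and 17.7% called higher, 27 of 62 nuclear encoded respiratory chain subunits fell and 1 rose (median -0.70). Of 35 proteasome subunits 18 fell and 2 rose (median -0.76). The lists had median lengths of 142 and 310 residues. Of all genes at 100 to under 200 residues 34% were called lower (median -0.66), and at 200 to under 400 residues 31.4% (median -0.57). Ndufc2 (-1.26) and Atp5h (-1.22) followed Ndufs8 among the former, and Psmb3 (-1.26) and Psma6 (-1.21) followed Psma2 among the latter. The subunits that rose were long ones: Ndufs1 of complex I (727 residues, 1.79, adjusted p = 5.91e-05), and the regulatory particle scaffolds Psmd1 (953 residues, 1.36) and Psmd2 (908 residues, 1.11). In LUL16 the respiratory chain median was -0.04, against -0.92, -0.93 and -1.03 in LUL15, LUL17 and LUL18. Without LUL16 49 of 62 subunits fell and 2 rose. In that fit 1906 of all 6265 genes were called lower and 1547 higher. At 100 to under 200 residues 515 of 734 genes were lower in it. Short proteins such as thymosins and S100 proteins fell in 6 of 26 cases (median -0.56). Cfl1, the actin-severing protein cofilin (-1.17), and B2m, the light chain of MHC class I (-1.11), were among them. This list had a median length of 102 residues. Of genes under 100 residues 8.96% were called lower, and at 100 to under 200 residues 34%. Without LUL16 19 of 25 fell, beside 70 of 131 and 515 of 734 genes in these 2 length classes.

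mRNAs of ribosomal proteins and of several translation factors begin with a terminal oligopyrimidine (TOP) tract, a C followed by a run of pyrimidines through which their translation is held back when growth signals are low. Starts annotated in RefSeq (GRCm38.p6) are shown for 4 tested ribosomal protein mRNAs, from 10 bases before the start, with the tract in capitals. They are the lowest 4 of the tested ones in which the tract was found at the start.
Rps10, chr17:27635225-27635254, minus strand: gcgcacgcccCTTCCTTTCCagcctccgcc
Rps15a, chr7:118116128-118116157, minus strand: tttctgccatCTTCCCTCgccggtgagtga
Rps6, chr4:86857348-86857377, minus strand: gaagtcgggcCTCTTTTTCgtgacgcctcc
Rpl14, chr9:120571507-120571536, plus strand: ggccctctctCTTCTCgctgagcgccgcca
None of these 4 passed the limma test, with log2 differences of -0.62, -0.62, -0.60 and -0.42. The tract was searched on the transcribed strand as a C at the annotated start with at least 4 further C or T bases. It stood at 3.01% of all 27025 RefSeq starts and at 13 of the 61 ribosomal protein starts that were matched (21.3%).

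Of 46 tested ribosomal protein mRNAs 5 fell and 1 rose, beside 15.5% and 17.7% of all genes (median -0.35, beside -0.22 for all genes). The list had a median length of 151 residues. Genes at 100 to under 200 residues were lower than this list, with a median of -0.66 and 34% called lower. Rpl36a (-1.53), Rpl19 (-1.14), Rpl6 (-0.84), Rpl7l1 (-0.79) and Rps4y2 (-1.15, a noncoding locus named Rps4l in GENCODE) fell. The one that rose, listed as Rpl24 (1.77), carries the identifier that GENCODE gives to the zinc finger gene Zbtb11 (1050 residues), and the site counted is the end of that gene. The median was -0.53, 0.19, -0.40 and -0.63 in LUL15 to LUL18. Without LUL16 20 of 43 fell, beside 1906 of all 6265 genes and 515 of 734 at 100 to under 200 residues. Their share of all counts was 2.57% ± 0.36 in the middle and 2.17% ± 0.48 in the heaviest class (higher in 1 of 4 gradients, exact sign-flip permutation p = 0.25). Among 14 other TOP mRNAs, elongation factor Eef2 (858 residues, 1.20), the poly(A)-binding protein Pabpc1 (636 residues, 1.35) and Vim (0.99) rose. The initiation factor subunit Eif3k (-1.02), Eef1d (-0.85) and Npm1 (-0.60) fell. Pabpc1 was highest in fraction 4 of LUL16 and fraction 5 of the other gradients. Its mean was 355 CPM in fraction 5 and 79.1 CPM in the heaviest class. Eef2 peaked in fraction 15 of LUL15, fraction 5 of LUL16 and fraction 6 of LUL17 and LUL18. Its mean was 11250 CPM in fraction 6 and 7213 CPM in the heaviest class. Over all 139 tested genes in which the search found the tract, 12.2% were higher and 10.1% lower, beside 17.7% and 15.5% of all genes (median -0.21). The search found it at 21.3% of the matched ribosomal protein starts, so this set leaves out most of them.

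Among the antibody mRNAs Ighm rose, and Igkc, Iglc2 and Igj fell. Ighm, the mu heavy chain of IgM (475 residues), stood at 8987, 16400, 12010 and 7180 CPM in the middle and at 21720, 19020, 43710 and 34840 CPM in the heaviest class, with a log2 difference of 1.41 ± 0.28 (adjusted p = 0.00143). The classes did not overlap, and LUL16 showed the smallest step (0.21). Igkc, the kappa light chain constant region (106 residues), was at 54180, 69510, 109100 and 120900 CPM against 23040, 35320, 57740 and 59170 CPM, lower within each gradient at -1.04 ± 0.21 (adjusted p = 0.00144). Iglc2, a lambda constant region, was at -0.78, and Igj, the J chain that joins IgM units, at -0.81. Of 9 tested members 1 rose and 3 fell, beside 17.7% and 15.5% of all genes (median -0.15, and 0.37 with edgeR, which called 2 higher). The gamma heavy chains did not pass, with Ighg1 at -0.18, Ighg2b at -0.15, Ighg3 at 0.62 and Ighg2c at 0.91. Without LUL16 3 of 8 members rose and 3 fell (median 0.33), Ighg2c among those that rose (1.31, limma adjusted p = 0.00011). In that fit 1547 of all 6265 genes were called higher and 1906 lower. In all, antibody mRNAs took 10.2% ± 3.07 of middle and 7.54% ± 2.84 of heaviest counts, lower in 4 of 4 gradients (exact sign-flip permutation p = 0.125).

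Endoplasmic reticulum chaperones rose in 5 of 18 cases and fell in 1, beside 17.7% and 15.5% of all genes (median -0.03, and 0.19 with edgeR on summed counts). Hspa5, the chaperone BiP, had the largest difference (1.86 ± 0.27, adjusted p = 0.00014) and peaked in fractions 14 and 15. Hsp90b1 rose by 1.46 on average, with 2.20, 0.94, 0.15 and 2.54 in the 4 gradients, and Dnajb11, a co-chaperone of Hspa5, fell by 0.89. Without LUL16 9 rose and 5 fell, beside 1547 and 1906 of all 6265 genes.

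Lists of antigen presentation and receptor mRNAs held members that moved each way, and are read beside 15.5% of all genes called lower and 17.7% called higher. The MHC and B cell receptor lists had median lengths of 268 and 354 residues. At 200 to under 400 residues 31.4% of genes were called lower and 0.482% higher. Of 16 MHC genes 9 fell (median -0.70), including H2-Oa (-1.09), H2-DMb2 (-1.03) and H2-D1 (-0.90), and 3 rose: the peptide transporter subunits Tap2 (1.59) and Tap1 (1.20), and Ciita, the class II transactivator of 1078 residues (1.18). Ciita was at 58.3, 74.0, 84.1 and 41.4 CPM against 130.7, 146.9, 156.6 and 135.4 CPM. Of 19 B cell receptor and surface genes 7 fell and 4 rose (median -0.45). The receptor's signalling chains Cd79a (-1.27) and Cd79b (-1.16) and the costimulator Cd40 (-1.03) fell. The signalling enzymes Plcg2 (2.23) and Syk (1.17), the complement receptor Cr2 (1.93) and the inhibitory receptor Cd22 (0.90) rose. Of 18 transcription factors, against the same background shares, 3 rose, the germinal centre repressor Bcl6 (1.35), the plasma cell factor Prdm1 (0.93) and Foxo1 (0.75), and 5 fell, among them Id3 (-1.21), Sfpi1, the factor PU.1 (-1.09), and Xbp1 (-0.79). Id3 had 0.14 in LUL16, and it was not called without the shallow library (-0.90, limma adjusted p = 0.0132) or with edgeR (-0.72, adjusted p = 0.0439). With edgeR 3 of the 18 rose and 2 fell.

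Of 6 mitochondrially encoded mRNAs tested none passed by limma (median 0.19, and -0.07 without LUL16), with 1 at an unadjusted p under 0.05 and 2 called higher by edgeR and by DESeq2. mt-Nd1 had the largest value (0.61 ± 0.19, adjusted p = 0.0166, shared site with the adjoining tRNA gene mt-Ti), and these mRNAs took 1.09% ± 0.41 of middle and 1.25% ± 0.23 of heaviest counts. None of 3 replication-dependent histone mRNAs passed by limma (median -0.80). At an unadjusted p under 0.05 there were 2, and edgeR and DESeq2 each called 2 lower. Without LUL16 all 3 fell, beside 1906 of all 6265 genes. None of 5 long noncoding RNAs passed by limma (median -0.10, and 0.08 by edgeR), at an unadjusted p under 0.05, or by edgeR or DESeq2. Over all 25 genes annotated as lincRNA 4 were called higher and 1 lower (median -0.10). Of 9 antisense genes 1 was called higher, and of 14 processed transcripts 1. Of 146 pseudogenes 7 were higher and 31 lower (median -0.39). All limma counts of this paragraph are read beside 17.7% of all genes called higher and 15.5% called lower (median -0.22). By rule the 3 largest rises of other biotypes were Gm13123 (3.21), AL831764.1 (2.81, counted in an intron of its locus) and Gm20667 (2.23), and the 3 largest falls were Gm6136 (-1.98), Gm11951 (-1.58) and Gm5883 (-1.51). Gm13123, Gm11951 and Gm5883 were counted outside their annotated exons.

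Among 17 mRNAs known for upstream open reading frames or structured leaders, Tfrc alone rose and none fell by limma (median -0.17), with 3 lower at an unadjusted p under 0.05 and 1 called lower by edgeR and by DESeq2. Uchl1 (-0.68, adjusted p = 0.0149) and Ddit3 (-0.52, adjusted p = 0.112) did not pass. Without LUL16 4 of the 17 fell. In that fit 1906 of all 6265 genes were called lower and 1547 higher. Of the mRNAs that the study follows, 8 were tested and Pabpc1 alone passed (median -0.38), though its level was highest in fractions 4 and 5. Without LUL16 2 rose and 2 fell (median -0.30), as Hif1a (0.65, adjusted p = 0.000189), Cdkn1a (-0.97, adjusted p = 0.00341) and Tial1 (-0.52, adjusted p = 0.00989) passed as well by limma. Trp53, the mRNA of p53, stood at 322, 569, 245 and 375 CPM in the middle and at 293, 459, 313 and 458 CPM in the heaviest class, with a log2 difference of 0.05 ± 0.17 (adjusted p = 0.833). Its classes overlapped, and it peaked in fraction 13 of all 4 gradients. Cdkn1a, the p53 target p21, had a mean of -0.73 ± 0.33 (adjusted p = 0.0773), with 0.15, 0.02, -2.15 and -0.92 in the 4 gradients, and -0.33 without the shallow library. Hif1a (0.42), H2-K1 (-0.49), Tia1 (-0.55), Tial1 (-0.49) and Ccnd2 (-0.27) had adjusted p-values of 0.0363 to 0.182.

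**Figure D4:**
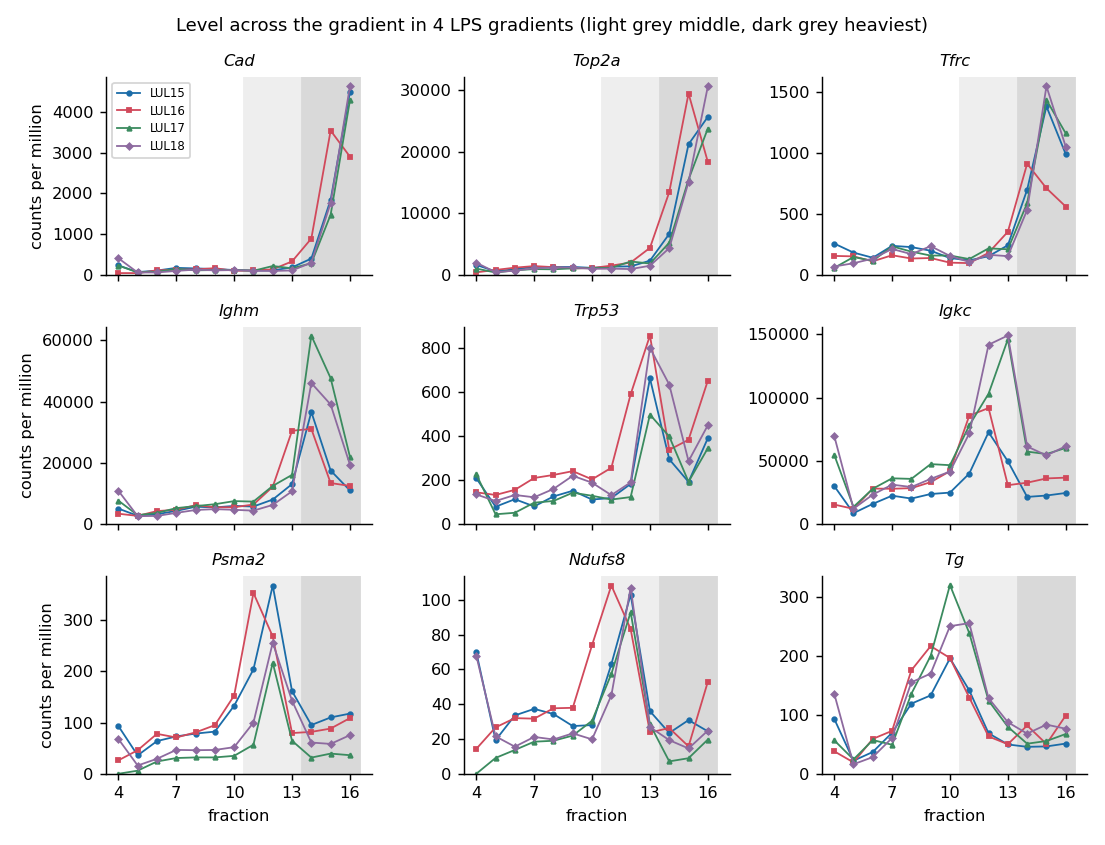
Level (CPM, axes from 0) of 9 mRNAs in fractions 4 to 16 of the 4 LPS gradients, with the middle fractions in light and the heaviest in dark grey. Cad and Top2a climb steeply to fractions 15 and 16, Tfrc peaks in fractions 14 and 15, Ighm in fraction 14 and Trp53 in fraction 13, and Igkc, Psma2, Ndufs8 and Tg peak in fractions 9 to 13.

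**Figure D5:**
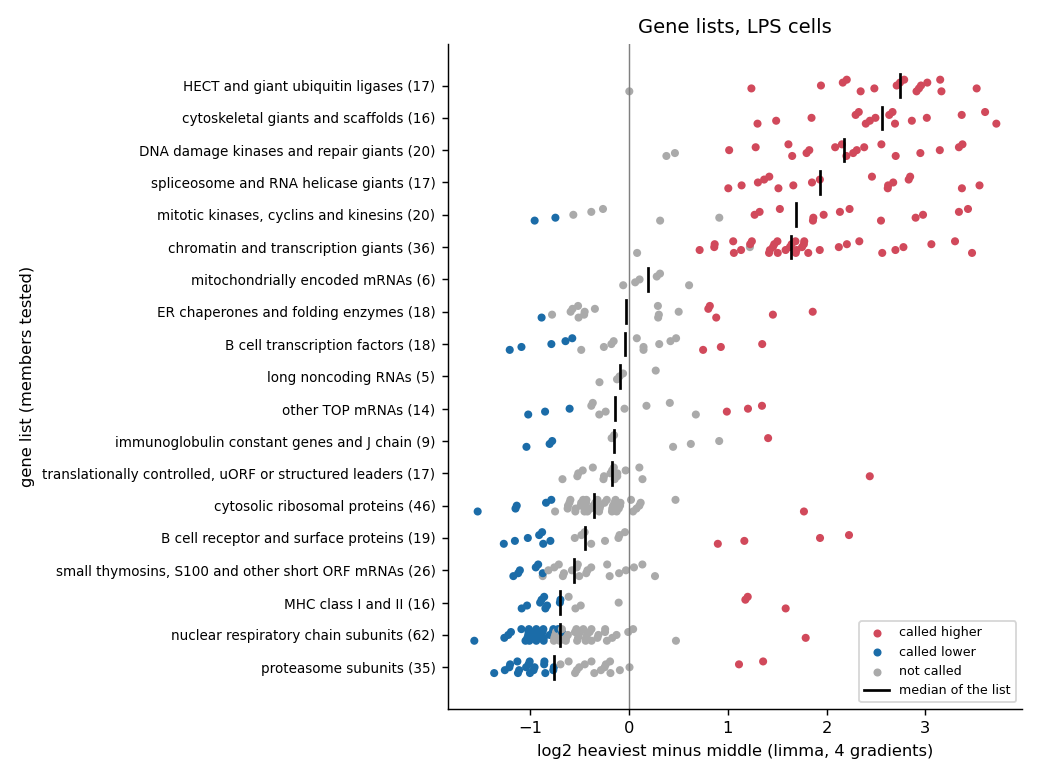
Log2 difference (heaviest minus middle) of the tested members of each gene list in LPS cells: red points were called higher, blue points lower and grey points not called (limma adjusted p under 0.01), and black bars are list medians. The long-protein lists lie almost wholly to the right of 0, with medians of 1.64 to 2.74, and the proteasome and respiratory chain lists lie mostly to the left.

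Gradients of the treated cells, which had no part in choosing these genes, moved these mRNAs largely the same way. After etoposide 937 of 6191 genes (15.1%) were called, and with the inhibitor as well 1442 of 6611 (21.8%). Over all genes tested in both groups, the log2 difference correlated with that in LPS at r = 0.903 (LPS+ET, n = 5792) and 0.869 (LPS+ET+KU, n = 6061). A same-sign share over all genes was not taken. Treated and LPS gradients share library pools, and within-gradient differences of the same pool in 2 treatments correlated at a median of 0.301. Of the 1147 genes higher in LPS, 1038 were tested in LPS+ET, where 1028 (99%) had the same sign and 588 were called in the same direction (beside 10.1% called higher over all genes). Of the 1003 lower genes, 957 of 970 had the same sign and 197 were called lower (beside 5.07%). In LPS+ET+KU the numbers were 1045 of 1067 with 718 called, and 970 of 987 with 301 called (beside 12.9% and 8.86%), and 1 gene was called in the opposite direction. With TMM scaling the share of calls that were higher moved from 66.5% to 49.2% (LPS+ET) and from 59.4% to 34.1% (LPS+ET+KU).

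Length classes kept their order in the treated cells, with medians of 1.76 (LPS+ET) and 1.69 (LPS+ET+KU) at 1600 residues or more, and of -0.72 and -0.57 at 100 to under 200 residues. Cad had log2 differences of 3.59 and 4.13, and Top2a of 3.06 and 2.56, in these groups. Trp53 had -0.12 and 0.07 (adjusted p = 0.82 and 0.864). The difference between treatments was itself tested for every gene. Between treated and untreated bulk samples, fewer cells of a type and less RNA per cell cannot be told apart. With limma no gene passed for LPS+ET against LPS, where 325 genes (5.02%) had an unadjusted p under 0.05 and the smallest adjusted p was 0.0866, nor for LPS+ET+KU against LPS, where 432 genes (6.67%) did and the smallest adjusted p was 0.143. With the library pool as a replicate block in this test, 2 genes passed for LPS+ET and 24 for LPS+ET+KU. A p above the threshold does not show that the distributions were alike, and the shifted and shallow treated fractions were part of this test.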

How the data were processed

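The authors reverse transcribed equal concentrations of RNA from each gradient fraction with barcoded primers, removed PCR duplicates with the 5 random barcode bases, trimmed A tracts, aligned tags to GRCm38 and tallied them per gene at poly(A) sites. The deposited values are these counts, with no normalization. The submitters' processing notes name TopHat2 2.0.12, HTSeq and DESeq2 1.6.3 with no role, and the aligner of these libraries is not given in the sources used here. Deposited positions, which count from 0, were raised by 1. Columns gave treatment, fraction and library pool. For LUL16 and LUL18 the replicate number was not used, since each name fits more than 1 label.

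Each library was scaled to CPM, the mean of 3 fractions was taken per class and gradient, and log2(mean CPM + 1) was tested with limma 3.58.1 (trend, moderated statistics) with the gradient as a block, on genes that averaged at least 100 counts in fractions 11 to 16 of a gradient. Calls were made at a Benjamini-Hochberg adjusted p under 0.01, two-sided, the threshold of the study. A fold change on this scale understates that of low genes. Middle and heaviest values of the same LPS gradient deviated together from the class means (r of 0.135 to 0.578, all 4 over 0.1), and those of different gradients correlated at -0.464 to 0.381. Pools across treatments exceeded 0.1 in 8 of 12 pairs and were not taken as pairs. LPS+ET and LPS+ET+KU were fitted alike, and differences between treatments were tested with limma on the 12 within-gradient differences. Shares of counts were compared with an exact sign-flip permutation test, two-sided.

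GENCODE M21, on the same assembly, gave protein lengths (principal coding transcript) and the features at counted sites. Transcript starts came from RefSeq. Named genes were (a) the 12 largest rises and falls among called protein coding genes with the same sign in 4 gradients and a mean of 20 CPM or more, (b) the 3 largest each way among other biotypes, (c) the mRNAs the study follows, (d) the 3 most different members of each list and (e) genes called different between treatments. Some genes that met these rules are not reported here. Others are said to be chosen after their values were seen. The comparison, members, lists and rules were chosen with earlier results of these data known. Alternatives were TMM scaling, pseudocounts of 0.25 and 5 CPM, other filters, edgeR 4.0.16 and DESeq2 1.42.0 on summed counts, fits without the block, other fraction limits, and leaving out gradients or shallow libraries. R 4.3.3 and Python 3.11.15 were used. Of the 102 named genes, 75 had their counted site no more than 30 bases from an annotated end. Tags of overlapping or near-identical genes may be assigned to either.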

Additional observations from a re-analysis of the deposited data

Results flagged for a closer look

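Of 138 sets of 4 gradient values examined, 8 held a gradient set far apart from the other 3. That is close to the 1 in 20 that chance gives, and the sets share genes and libraries. In 5 of them it was LUL16, the gradient whose fractions resembled the next fraction of the others. Its median over respiratory chain subunits was -0.036, over cytoskeletal and scaffold proteins 2.28 and over thymosins, S100 and other short proteins 0.13. In the same gradient the ribosomal protein share of counts was 0.31 percentage points higher in the heaviest class, where the other gradients had a lower share, and Ndufc2, a complex I subunit, had a log2 difference of -0.44.

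LUL17, which holds the shallow fraction 12 library, stood apart for Nme2 at -3.65 and for Ubr4 at 3.48. LUL18 stood apart for the other TOP mRNAs, with a median of 0.048. The part of fraction position or depth in these values was not tested.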

How the results depend on the processing

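For LPS cells, the 2150 calls became 986 with no filter on low counts, 3340 at an adjusted p under 0.05 and 4065 with LUL16 read 1 fraction earlier, a setting added after the data were seen, and lay between 1259 and 3453 when a gradient was left out. Without the replicate block 1545 genes were called, and edgeR and DESeq2 on summed counts called 2400 and 2539. Their median over all genes was -0.09, against -0.22 for the mean of CPM. Without the shallow library 2668 genes were called. For LPS+ET, 937 calls became 511 without the replicate block and 596 without libraries under 100000 counts, both added after the data were seen, and 25 to 2150 when a gradient was left out, with 25 without LUL15 and 2150 without LUL16. For LPS+ET+KU, 1442 calls became 2321 with TMM scaling and 445 without the replicate block, and 771 to 1754 when a gradient was left out. For the differences between treatments, pool as a replicate block gave 2 genes for LPS+ET and 24 for LPS+ET+KU in place of 0, and leaving out 1 gradient gave 0 to 1, the 1 without LUL17 of LPS+ET. The cause of these changes was not tested. Of the length class medians, that at 400 to under 800 residues (0.01) was -0.05 without LUL17 and -0.02 without LUL18. Among named genes, those that changed sign under an alternative were called neither there nor in the values reported. Of the 102 named genes, 12 lost their call without the block and 21 without the filter, which tests 17085 genes. Genes under the filter on low counts were not tested at this depth.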
